A study of Mus musculus with 24 samples.

Results

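The expression of 9 genes of the C-type lectin receptor family was followed in mouse bone marrow-derived macrophages: Clec4e, Clec4d, Clec4n, Clec7a, Clec5a, Clec10a, Clec12a, Clec4a2 and Clec4a3. They are the rows of the count table that carry these 9 names, out of 55401 genes in the table, and all 9 passed the filter on low counts that left 11717 genes to be tested. Macrophages were grown from the bone marrow of wild-type C57BL/6J mice in L929-conditioned medium and plated on day 6. They were left untreated, given 30 µM S14 (the sphingomyelin d18:1/14:0 of the study's title) or given 100 ng/mL lipopolysaccharide (LPS), a bacterial outer membrane component sensed by Toll-like receptor 4. Cells were harvested after 3 h or 18 h, which gives 6 groups of 4 libraries, all of the same genotype and grown by the same protocol. Reads came from the 3' ends of polyadenylated RNA (QuantSeq FWD). The labels do not say whether the 4 libraries of a group came from separate animals, so p-values measure the spread between these libraries, which may be technical. In such bulk RNA, fewer cells of a type and less RNA per cell cannot be told apart.

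C-type lectin receptors are membrane proteins of myeloid cells that bind glycans and lipids of microbes and of damaged cells. The activating ones pair with an adaptor that carries an immunoreceptor activation motif, such as the Fc receptor gamma chain (Fcer1g) or DAP12 (Tyrobp), or carry a similar motif themselves, and signal through the kinase Syk and the scaffold Card9 to NF-kB. The inhibitory ones carry an inhibitory motif in their cytoplasmic tail that recruits phosphatases such as SHP-1 (Ptpn6).

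Of the 9 genes, 8 lie on chromosome 6 (GENCODE M21 on the GRCm38 build), and 5 of them sit in 1 stretch of 337 kb with 8 C-type lectin genes in all. In that stretch, Clec4a3 (chr6:122952515-122969875), Clec4a2 (chr6:123106428-123143999), Clec4n (chr6:123229843-123247021) and Clec4d (chr6:123262111-123275265) are on the plus strand and Clec4e (chr6:123281789-123289870) is on the minus strand. Clec12a (chr6:129342691-129365303, plus) and Clec7a (chr6:129461591-129472779, minus) bound a second stretch of 130 kb, Clec5a lies apart (chr6:40574894-40585821, minus), and Clec10a is on chromosome 11 (chr11:70156197-70170834, plus). The annotation lists Clec7a as a polymorphic pseudogene and the other 8 as protein-coding. In the last 400 bases of the annotated transcripts, where such reads fall, 12.9% of 50-base words of Clec10a also occur in Mgl2. Of those of Clec4a2, 10.7% also occur in Clec4a4 or Clec4b1, for Clec4n the share is 1.65% and for the other 6 it is 0. These are shares of words and not of reads, so how far they affect the values of Clec10a and Clec4a2 was not measured.

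RefSeq promoter sequences (GRCm38.p6) matched 7 of the 9 genes, all but Clec10a and Clec4n. The 250 bases before the RefSeq start are shown for 2 neighbours that were higher and 2 receptors that were lower after 18 h of LPS (values below). That start can differ from the edge of the gene span given above. The windows of Clec12a and Clec4a2 lie inside their spans, and that of Clec5a overlaps the edge of its span. They come from chr6:123289872-123290121, minus strand (Clec4e), chr6:123261857-123262106, plus strand (Clec4d), chr6:129472780-129473029, minus strand (Clec7a) and chr6:129349994-129350243, plus strand (Clec12a), each written 5' to 3'. Capitals mark matches, on either strand, to 6 motifs that were searched: the PU.1 core GAGGAA, a C/EBP site TTNNGNAA, an AP-1 site TGANTCA, the interferon-stimulated response element, a GAS site TTCNNNGAA and the kB consensus.
Clec4e: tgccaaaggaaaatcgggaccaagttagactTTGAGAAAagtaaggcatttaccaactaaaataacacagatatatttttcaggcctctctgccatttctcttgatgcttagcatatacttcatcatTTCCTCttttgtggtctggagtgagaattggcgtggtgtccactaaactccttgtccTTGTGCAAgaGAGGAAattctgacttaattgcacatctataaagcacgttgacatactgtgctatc
Clec4d: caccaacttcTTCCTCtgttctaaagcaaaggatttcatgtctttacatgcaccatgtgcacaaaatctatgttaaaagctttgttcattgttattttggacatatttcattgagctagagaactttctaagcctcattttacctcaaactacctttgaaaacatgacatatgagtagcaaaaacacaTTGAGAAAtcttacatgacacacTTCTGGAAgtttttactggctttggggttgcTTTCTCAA
Clec7a: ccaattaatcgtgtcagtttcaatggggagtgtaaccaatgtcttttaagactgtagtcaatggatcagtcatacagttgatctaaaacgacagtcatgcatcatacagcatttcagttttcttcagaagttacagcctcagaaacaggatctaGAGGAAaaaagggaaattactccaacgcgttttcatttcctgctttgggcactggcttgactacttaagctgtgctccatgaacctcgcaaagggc
Clec12a: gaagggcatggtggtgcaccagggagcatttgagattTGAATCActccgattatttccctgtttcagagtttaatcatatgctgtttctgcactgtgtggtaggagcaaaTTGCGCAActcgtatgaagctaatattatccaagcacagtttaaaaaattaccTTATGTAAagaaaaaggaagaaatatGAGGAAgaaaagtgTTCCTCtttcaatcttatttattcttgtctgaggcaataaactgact

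PU.1 is a lineage factor of macrophages, and its core was in 5 of the 7 promoters (Clec4e, Clec4d, Clec7a, Clec5a and Clec12a), against 23.1% of all 27025 promoters searched. The C/EBP site was in 5 (Clec4e, Clec4d, Clec5a, Clec12a and Clec4a2), against 36.9% of all. An AP-1 match was in Clec12a alone (6.87% of all promoters) and a GAS match in Clec4a2 alone (7.18%). None of the 7 held a match to the interferon-stimulated response element (3.04% of all) or to the kB consensus (7.01%). No match overlapped one of another motif. Clec4a3 held a match to none of the 6. A match is a description of the letters and not of binding.

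Libraries held 3334182 to 6350251 counted reads and 13405 to 15505 detected genes. Levels are given as CPM, counts per 1000000 of the scaled library; since reads come from transcript ends, levels are compared between groups and not between genes. Replicate 4 of the untreated cells at 18 h stands apart: it had the fewest detected genes, and added control RNAs (spike-ins) made up 0.0134% of its reads, against 0.0333% to 0.0418% in the other 3 of its group. Leaving it out changed 1 of the 18 receptor calls against untreated cells at 18 h, that of Clec12a with S14. All 10 macrophage markers had reads in every group, with a summed level of 17864 to 47644 CPM. Of the marker lists of other cells, dendritic cell markers summed to 6.13 CPM or less and natural killer cell markers to 1.9 CPM or less in every library. Summed neutrophil markers were 26.4 to 56.7 CPM in untreated libraries and 156 to 216 CPM after 18 h of LPS, carried by Csf3r, S100a8 and Mmp8, while Ly6g had no read in 5 groups and 1 read in the sixth. Summed B cell markers were mostly Ighm in 5 groups, while with LPS at 18 h Ighm itself had 10 reads. T cell markers summed to 20.1 to 39.5 CPM with LPS at 3 h, carried by Lck, and to 17.9 CPM or less elsewhere, and fibroblast markers to 10.3 to 17.5 CPM with LPS at 18 h and 1.99 CPM or less elsewhere.

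Differences are given as log2 fold changes ± the standard error (SE) of edgeR's quasi-likelihood fit over all 24 libraries; a gene is called when its p, adjusted over the 11717 genes by the Benjamini-Hochberg method, is under 0.05. At 3 h, S14 raised 3 of the 9 receptors and lowered none, with 9.05% of all tested genes called higher and 6.2% lower; the median of the 9 was 0.21 and that of all tested genes -0.03. LPS at 3 h raised 3 and lowered 1, against 25.3% and 30.2% of all genes, with medians of 0.16 and -0.11; the counts were 3 and 0 with DESeq2's size factors, and 1 and 0 for either treatment under spike-in scaling. At 18 h, S14 raised 5 and lowered 3, against 12.6% and 11.6% of all genes (15.2% in either direction at 3 h and 24.3% at 18 h), with medians of 0.3 and -0.02. LPS at 18 h raised 4 and lowered 3, against 27.3% and 28.3% of all genes (55.5% in either direction at 3 h and 55.6% at 18 h), with medians of 0.23 and -0.04. Both treatments are set against the same 4 untreated libraries at each time. Scaled by spike-ins, where the median of all tested genes shifted by -0.97 for S14 and -0.64 for LPS at 18 h, 2 receptors were higher and 4 lower with S14, and 3 were higher and 4 lower with LPS. For no comparison is the share of all tested genes called under that scaling given here, so counts under it lack that background. The plot of fold changes shows both treatments at both times.

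**Figure D1:**
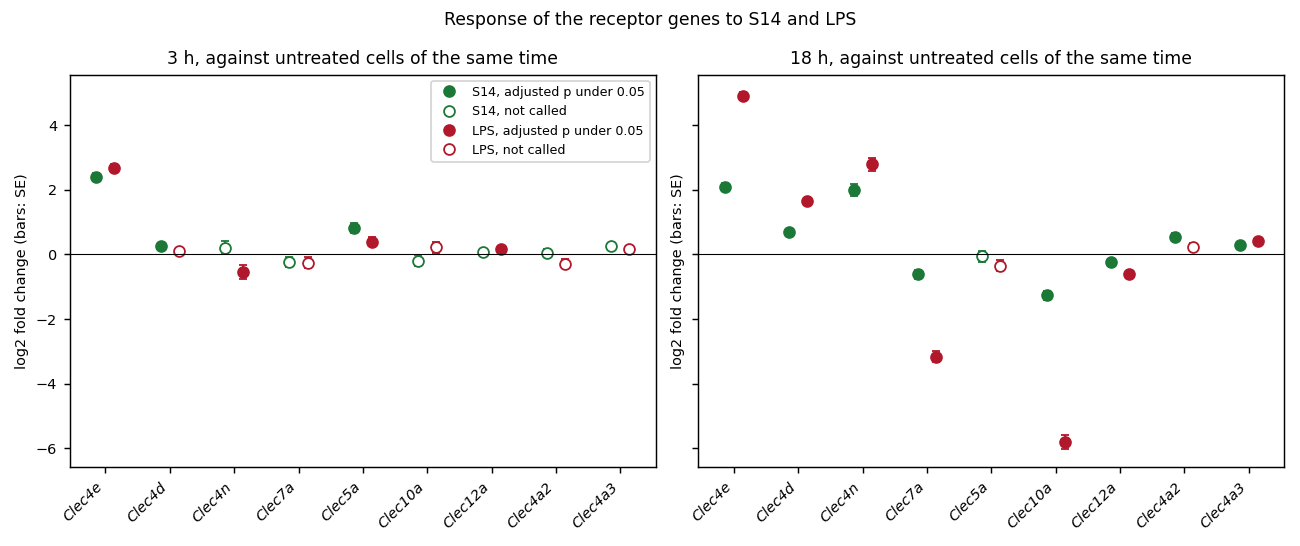
Log2 fold change of each receptor gene against untreated cells of the same time (y axis; bars, SE of the fit over 24 libraries) for S14 (green) and LPS (red), at 3 h (left) and 18 h (right); filled points are called at an adjusted p under 0.05. At 3 h the points of Clec4e stand apart at 2.41 and 2.68, and at 18 h the LPS points run from -5.82 for Clec10a to 4.9 for Clec4e.

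The 3 receptors that pair with the Fc receptor gamma chain, Clec4e (Mincle, a receptor for mycobacterial cord factor), Clec4d (MCL, its partner) and Clec4n (Dectin-2, which binds mannans), are adjacent genes, and all 3 were called higher after 18 h of either treatment. Of the 3, Clec4e alone had risen several-fold at 3 h. At 3 h Clec4e stood at 220, 176, 194 and 231 CPM in the untreated libraries, at 982, 1047, 1098 and 1244 CPM with S14 and at 1381, 1298, 1314 and 1277 CPM with LPS. Every treated library was far above every untreated one. Clec4e rose 5.33-fold with S14 (log2 2.41 ± 0.11, adjusted p = 2.54e-19) and 6.42-fold with LPS (2.68 ± 0.11, adjusted p = 5.78e-22).

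By 18 h the 2 treatments had moved apart for Clec4e. Untreated libraries stood at 33.1, 39.2, 29.8 and 35.4 CPM, those with S14 at 136, 134, 182 and 137 CPM and those with LPS at 1008, 835, 1014 and 1236 CPM. The 3 groups did not overlap. Against untreated cells Clec4e was 4.29-fold higher with S14 (2.1 ± 0.12, adjusted p = 4.42e-16) and 29.8-fold higher with LPS (4.9 ± 0.12, adjusted p = 1.36e-27). The untreated level itself fell by 2.58 on the log2 scale from 3 h to 18 h (adjusted p = 3e-19), from 205 ± 24.9 to 34.4 ± 3.96 CPM (SD, n = 4). Levels with LPS were 1318 ± 45.1 CPM at 3 h and 1023 ± 164 CPM at 18 h, while levels with S14 went from 1093 ± 112 to 147 ± 23.2 CPM. The LPS response was thus 2.21 ± 0.15 larger at 18 h than at 3 h (adjusted p = 1.16e-14), and for S14 that difference was -0.31 ± 0.16 and not called (adjusted p = 0.182). Scaled by spike-ins, the S14 difference between times was called (-1.42, adjusted p = 0.0225; -0.87, adjusted p = 0.0618 without untreated replicate 4 at 18 h), that of LPS was 1.27 (adjusted p = 0.0267), and S14 at 18 h gave 1.1 (adjusted p = 0.00626). In the order of the 6 levels, S14 at 3 h and LPS at 18 h overlapped and did not differ past the threshold (log2 difference 0.09, adjusted p = 0.452).

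S14 against LPS, for Clec4e, gave -0.27 at 3 h (95% interval -0.47 to -0.06, adjusted p = 0.0279) and -2.8 at 18 h (-3.02 to -2.57, adjusted p = 2.19e-21). The 3 h call was lost without S14 replicate 1, 2 or 3 or LPS replicate 1 or 3, with values of -0.34 to -0.22 over the 8 omissions of 1 library, and under spike-in scaling (-0.51, adjusted p = 0.334). The 18 h libraries of S14 and LPS lay far apart, with a 6.94-fold lower level in S14.

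Clec4d started from a higher level of its own and moved less at 3 h. Untreated libraries at 3 h stood at 676, 573, 591 and 650 CPM, those with S14 at 729, 750, 696 and 810 CPM and those with LPS at 722, 650, 673 and 660 CPM. The S14 libraries lay just above the untreated ones, and the LPS libraries overlapped them. S14 gave 0.26 ± 0.08 (adjusted p = 0.0175), a call lost without untreated replicate 2 (0.22, adjusted p = 0.0911) or 3 (0.24, adjusted p = 0.071) or S14 replicate 4 (0.22, adjusted p = 0.0978) or under spike-in scaling (0.37, adjusted p = 1), and LPS gave 0.12 ± 0.08, not called (adjusted p = 0.207).

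After 18 h the Clec4d levels were 341, 329, 322 and 290 CPM in untreated libraries, 520, 483, 564 and 521 CPM with S14 and 938, 875, 1051 and 1152 CPM with LPS. The 3 groups were in separate ranges, in that order. Clec4d was 1.63-fold higher with S14 (0.7 ± 0.08, adjusted p = 5.63e-09; -0.26 under spike-in scaling) and 3.13-fold higher with LPS (1.65 ± 0.08, adjusted p = 4.76e-21; 1.06 under spike-in scaling). S14 was below LPS by -0.94 (95% interval -1.11 to -0.78, adjusted p = 3.54e-13). Both responses were larger at 18 h than at 3 h, by 0.44 for S14 (adjusted p = 0.00438; -0.63 under spike-in scaling) and by 1.53 for LPS (adjusted p = 4.28e-15). The LPS difference was not called under spike-in scaling (0.59, adjusted p = 0.293), and it was called when untreated replicate 4 at 18 h was left out as well (1.03, adjusted p = 0.00719). Untreated Clec4d fell by 0.96 over the same time (adjusted p = 5.49e-13), from 623 ± 48.3 to 320 ± 22 CPM (SD, n = 4), which was not called under spike-in scaling, with that library (-0.15, adjusted p = 0.69) or without it (-0.59, adjusted p = 0.0635). In the order of its 6 levels, S14 and LPS at 3 h overlapped (difference 0.14, adjusted p = 0.145), as did LPS and untreated at 3 h.

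Clec4n was called higher at 18 h and with neither treatment at 3 h, as was Clec4d with LPS. At 3 h it stood at 23.1, 11.3, 15 and 17.6 CPM untreated, at 20.9, 20.7, 17.9 and 18 CPM with S14 and at 13.8, 9.75, 12.4 and 9.61 CPM with LPS. The untreated range covered all 4 S14 values and overlapped the LPS values. S14 gave 0.21 ± 0.2 (adjusted p = 0.596), and LPS gave -0.55 ± 0.22 (adjusted p = 0.0334), a call lost without untreated replicate 1 (-0.35, adjusted p = 0.193) or 4 (-0.52, adjusted p = 0.0654) or LPS replicate 2 (-0.48, adjusted p = 0.09) or 4 (-0.48, adjusted p = 0.0973), or under spike-in scaling (-0.22, adjusted p = 0.716).

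At 18 h untreated Clec4n was 16.5, 9.17, 13.1 and 10.9 CPM, against 36.9, 41.6, 64.5 and 55.9 CPM with S14 and 86.9, 64.2, 94.4 and 95.2 CPM with LPS. Both treated groups were clear of the untreated one, and they overlapped each other by 1 library. The rise was 4.01-fold with S14 (2 ± 0.19, adjusted p = 1.22e-10) and 6.9-fold with LPS (2.79 ± 0.19, adjusted p = 7.54e-16), and S14 against LPS gave -0.78 (95% interval -1.12 to -0.44, adjusted p = 0.000221). The responses grew from 3 h to 18 h by 1.79 ± 0.28 for S14 (adjusted p = 7.38e-06) and by 3.33 ± 0.29 for LPS (adjusted p = 1.36e-12). At 3 h S14 was above LPS by 0.76 (95% interval 0.32 to 1.2, adjusted p = 0.00372). Under spike-in scaling S14 at 18 h gave 1.08 (adjusted p = 0.0112), while neither the growth of the S14 response (0.8, adjusted p = 0.185; 1.17, adjusted p = 0.0321 without untreated replicate 4 at 18 h) nor S14 against LPS at 3 h (0.5, adjusted p = 0.419) was called. Untreated Clec4n did not pass the test over time (-0.43, adjusted p = 0.0934), though it did without untreated replicate 2 at 3 h (-0.59, adjusted p = 0.026) or replicate 1 at 18 h (-0.59, adjusted p = 0.0284), and the 4 lowest of its 6 levels, those at 3 h and untreated at 18 h, overlapped from neighbour to neighbour.

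Neutrophils can also express these receptors, and the sum of the neutrophil list moved with these 3 genes at 18 h. It was 34.1 to 56.7 CPM in untreated, 83.4 to 115 CPM in S14 and 156 to 216 CPM in LPS libraries. Reads were found for 6, 7 and 7 of its 12 genes in these groups, and Ly6g had 0, 0 and 1 read. In the same order, Csf3r averaged 28.8, 47.9 and 108 CPM and S100a8 1.95, 5.18 and 45.5 CPM. Mmp8 was highest with S14 (12.8, 43.9 and 34.7 CPM), and S100a9 was lowest with LPS (0.777, 1.04 and 0.459 CPM). At 3 h the sum was 26.4 to 38.9 CPM in untreated and 72.6 to 100 CPM in LPS libraries. There Clec4e rose, Clec4d was not called and Clec4n was called lower. The part of neutrophils in the rise of Clec4e, Clec4d and Clec4n was not tested.

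**Figure D2:**
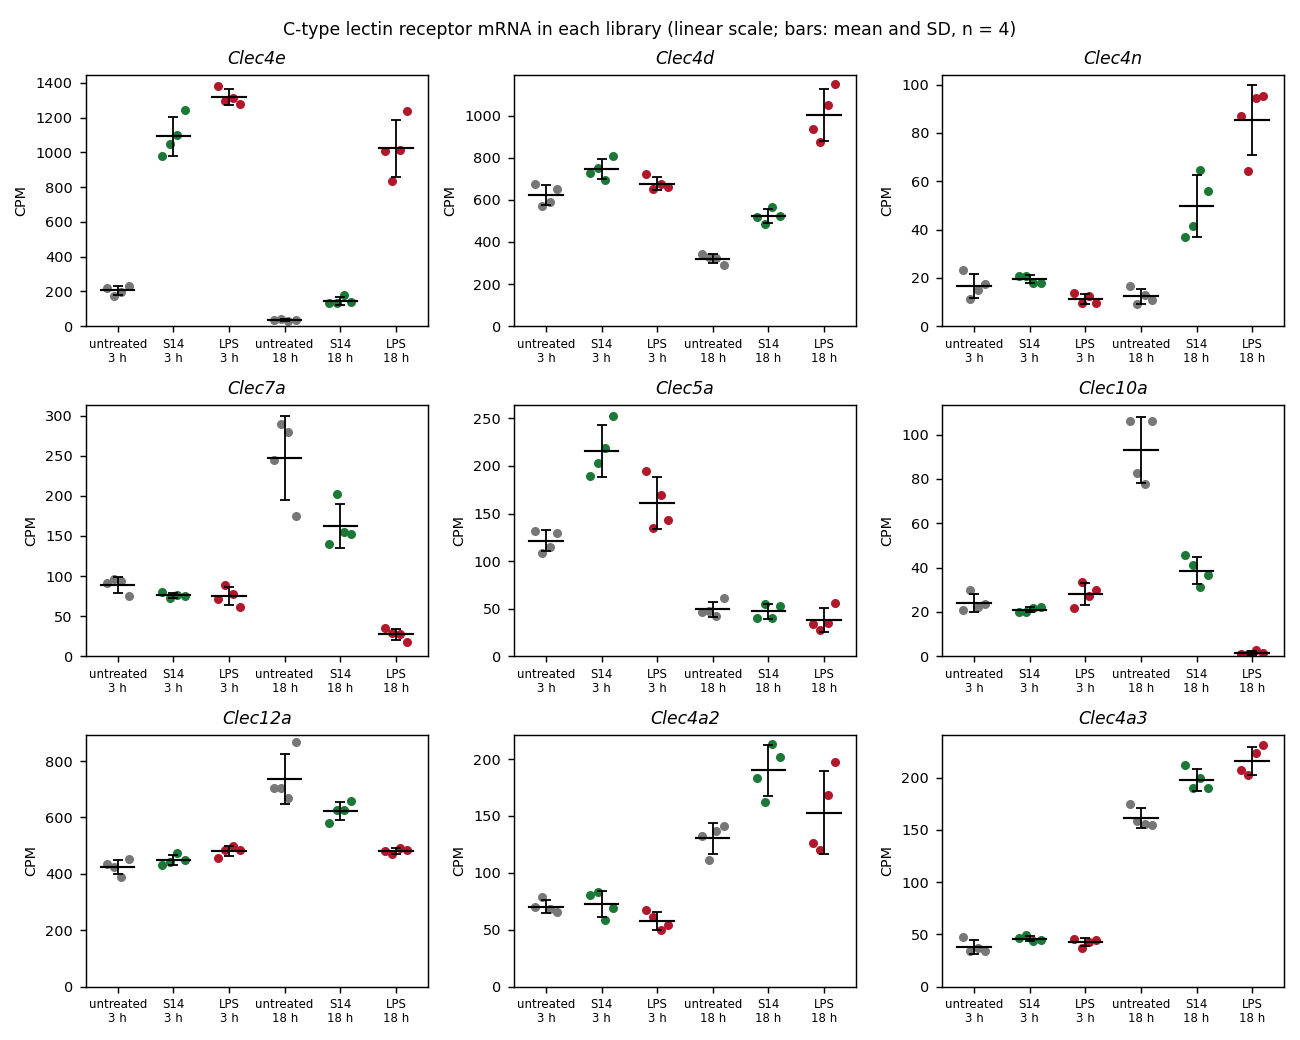
Level of each receptor gene in CPM (y axis, linear, from 0) in each of the 24 libraries (points) by group, with the mean and SD of 4 libraries. Clec4e, Clec4d and Clec4n are highest in treated cells, Clec5a is highest at 3 h, and Clec7a, Clec10a and Clec12a are highest in untreated cells at 18 h, where Clec10a averages 93 CPM against 1.6 CPM with LPS.

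Clec7a (Dectin-1), the receptor for fungal beta-glucan, carries its own activation motif and was lower after 18 h of either treatment. At 3 h its levels were 91.8, 95.9, 93.3 and 74.6 CPM untreated, 80.4, 73.2, 76.3 and 74.6 CPM with S14 and 71.7, 88.3, 77.7 and 62.1 CPM with LPS. The 3 groups overlapped. Neither S14 (-0.23 ± 0.15, adjusted p = 0.408) nor LPS (-0.25 ± 0.16, adjusted p = 0.18) passed the test, and S14 against LPS gave 0.02 with a 95% interval of -0.3 to 0.34.

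At 18 h Clec7a stood at 245, 290, 280 and 175 CPM untreated, at 140, 202, 155 and 153 CPM with S14 and at 34.9, 29.2, 28.2 and 18.1 CPM with LPS. The LPS libraries lay far below all others, and the S14 libraries below the untreated ones except for the overlap of 1 S14 library with untreated replicate 4. The level was 1.52-fold lower with S14 (-0.61 ± 0.14, adjusted p = 0.00223) and 9-fold lower with LPS (-3.17 ± 0.17, adjusted p = 1.48e-15); without untreated replicate 4 these were -0.74 and -3.3. S14 was above LPS by 2.56 (95% interval 2.22 to 2.9, adjusted p = 4.08e-13). The LPS response differed between times by -2.92 ± 0.23 (adjusted p = 1.24e-11). For S14 that difference was -0.38 ± 0.21 (adjusted p = 0.242), and it was called without untreated replicate 4 at 18 h (-0.51, adjusted p = 0.0367) and under spike-in scaling (-1.38, adjusted p = 0.0124), where S14 at 18 h gave -1.49. In untreated cells Clec7a rose by 1.48 over time (adjusted p = 5.34e-09), from 88.9 ± 9.71 to 248 ± 52.3 CPM (SD, n = 4), so that its 3 levels at 3 h lay between S14 and LPS at 18 h, with no call among these 3.

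Clec5a (MDL-1), which pairs with DAP12, rose with both treatments at 3 h, more with S14, and was not called with either at 18 h. These calls depend on the scaling, and the 18 h result with LPS also depends on the test and the filter. At 3 h it stood at 132, 109, 115 and 130 CPM untreated, at 189, 203, 219 and 253 CPM with S14 and at 195, 135, 170 and 143 CPM with LPS. Both treated groups lay above the untreated one, and they overlapped each other. Clec5a rose 1.78-fold with S14 (0.83 ± 0.15, adjusted p = 0.000181) and 1.32-fold with LPS (0.4 ± 0.15, adjusted p = 0.0287), and the LPS call was lost without untreated replicate 2 or 3 or LPS replicate 1 or 3 (0.3 to 0.48 over the 8 omissions of 1 library). S14 exceeded LPS by 0.43 (95% interval 0.12 to 0.74, adjusted p = 0.0223), a call lost without S14 replicate 4 or LPS replicate 2 or 4 (0.34 to 0.53). Under spike-in scaling none of the 3 was called: S14 gave 0.94 (adjusted p = 0.246), LPS 0.79 (adjusted p = 0.11) and S14 against LPS 0.16 (adjusted p = 0.836). When untreated replicate 4 at 18 h was left out as well, S14 (0.94, adjusted p = 0.00159) and LPS (0.78, adjusted p = 0.00321) were called. S14 against LPS was not (0.16, adjusted p = 0.659).

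At 18 h all Clec5a levels were lower, at 46.1, 47.6, 42.2 and 61.3 CPM untreated, 40.7, 55.2, 39.9 and 52.8 CPM with S14 and 34.4, 27.9, 35.1 and 56.3 CPM with LPS. The 3 groups overlapped. S14 gave -0.06 ± 0.17 (adjusted p = 0.827) and LPS -0.35 ± 0.17 (adjusted p = 0.0863), the latter called without LPS replicate 4 (-0.59, adjusted p = 0.00108). The LPS value was also called lower by the DESeq2 Wald test (-0.37) and with no filter on low counts (-0.34, adjusted p = 0.0129). S14 against LPS gave 0.29 with a 95% interval of -0.07 to 0.64, and 0.53 (adjusted p = 0.00478) without LPS replicate 4. Untreated Clec5a fell by 1.3 over time (adjusted p = 2.41e-07), and the responses fell by 0.89 for S14 (adjusted p = 0.00622) and by 0.75 for LPS (adjusted p = 0.00784). Under spike-in scaling Clec5a was called lower at 18 h with S14 (-1.15, adjusted p = 0.00908) and LPS (-1.01, adjusted p = 0.0259), but not when untreated replicate 4 was left out (-0.41 and -0.28). The untreated fall over time was then -0.37 (adjusted p = 0.394), and -1.11 (adjusted p = 0.000361) without that library, and the changes in response were -2.1 and -1.79. Its levels ran, from high to low, S14, LPS and untreated at 3 h, then untreated, S14 and LPS at 18 h, with no call between neighbours among the last 3.

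Clec10a (MGL1), which binds galactose-type glycans and takes up glycoproteins, showed the largest decrease of the 9. At 3 h it stood at 20.7, 30, 22.4 and 23.5 CPM untreated, at 20.2, 20.2, 21.9 and 22.2 CPM with S14 and at 21.9, 33.4, 27.4 and 29.9 CPM with LPS. These ranges overlapped, and neither S14 (-0.19 ± 0.16, adjusted p = 0.541) nor LPS (0.22 ± 0.16, adjusted p = 0.258) passed the test. S14 was below LPS by -0.41 (95% interval -0.74 to -0.08, adjusted p = 0.0374), a call lost without S14 replicate 1, 2 or 3 or LPS replicate 2, 3 or 4 (-0.51 to -0.32), or under spike-in scaling (-0.59, adjusted p = 0.266).

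At 18 h Clec10a was 106, 82.7, 77.9 and 106 CPM untreated, 45.6, 41.2, 31.2 and 36.8 CPM with S14 and 1.17, 1.01, 2.91 and 1.31 CPM with LPS. The 3 groups were far apart, and the LPS values rest on 5, 4, 13 and 6 reads. Clec10a was 2.39-fold lower with S14 (-1.26 ± 0.14, adjusted p = 5.28e-09; -2.31 under spike-in scaling) and 56.5-fold lower with LPS (-5.82 ± 0.22, adjusted p = 7.38e-25), with values of -6.28 to -5.66 when 1 library was left out. S14 exceeded LPS by 4.56 (95% interval 4.08 to 5.04, adjusted p = 5.82e-20). Both responses differed between times, by -1.07 for S14 (adjusted p = 0.000355; -2.26 under spike-in scaling) and by -6.04 for LPS (adjusted p = 2.95e-21). Untreated Clec10a rose by 1.94 (adjusted p = 5.2e-14), from 24.2 ± 4.03 to 93 ± 14.9 CPM (SD, n = 4). The 3 levels at 3 h lay between S14 and LPS at 18 h, in the order LPS, untreated, S14, with no call between untreated cells and either of the other two.

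Ighm, the heavy chain of IgM, moved with Clec10a and Clec7a. Its mean levels were 38, 40.6 and 34 CPM at 3 h in untreated, S14 and LPS cells, and 132, 19.2 and 0.584 CPM at 18 h. The B cell list of 6 genes had reads for 2 to 5 genes in a group, and its sum ran from 96.4 to 174 CPM in untreated libraries at 18 h and from 0 to 2.34 CPM with LPS. Its part in the fall of Clec10a and Clec7a was not tested.

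Of the inhibitory receptors, Clec12a (MICL, a receptor for uric acid crystals with an inhibitory motif) differed between groups by less than 1 on the log2 scale in every comparison of libraries scaled by TMM. At 3 h it stood at 435, 423, 389 and 451 CPM untreated, at 431, 443, 474 and 448 CPM with S14 and at 457, 486, 498 and 486 CPM with LPS. The LPS libraries lay just above the untreated ones, and the S14 libraries overlapped both groups. S14 gave 0.08 ± 0.07 (adjusted p = 0.579), and LPS gave 0.18 ± 0.08 (adjusted p = 0.0364), which was lost without untreated replicate 2 or 3 or LPS replicate 2, 3 or 4 (0.14 to 0.21) or under spike-in scaling (0.52, adjusted p = 0.251).

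At 18 h Clec12a was 703, 705, 670 and 869 CPM untreated, 581, 626, 627 and 658 CPM with S14 and 482, 469, 491 and 483 CPM with LPS. The 3 groups did not overlap, and untreated replicate 4 was the highest. LPS lowered Clec12a 1.53-fold (-0.61 ± 0.07, adjusted p = 2.29e-09; -0.53 without that library). S14 gave -0.24 ± 0.07 (adjusted p = 0.013), lost without untreated replicate 4 (-0.15, adjusted p = 0.104) or S14 replicate 1 (-0.21, adjusted p = 0.0662). S14 exceeded LPS by 0.37 (95% interval 0.22 to 0.52, adjusted p = 6.63e-05; 0.04 under spike-in scaling, not called). The LPS response differed between times by -0.8 (adjusted p = 2.54e-08) and the S14 response by -0.32 (adjusted p = 0.0283), the latter lost without replicate 3 of untreated or S14 at 3 h, untreated replicate 4 at 18 h or S14 replicate 1 or 3 at 18 h (-0.36 to -0.23). Untreated Clec12a rose by 0.8 (adjusted p = 1.2e-11), while its levels with LPS at 3 h and 18 h overlapped (difference 0, adjusted p = 0.983). Under spike-in scaling the differences were larger: -1.32 with S14 and -1.36 with LPS at 18 h, 1.73 in untreated cells over time, and -1.51 and -1.88 for the changes in response. Without untreated replicate 4 at 18 h the first 3 were -0.62, -0.66 and 1.03. The changes in response were then -0.81 with S14, not called (adjusted p = 0.08), and -1.18 with LPS (adjusted p = 0.00163).

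Clec4a2 (DCIR), which carries an inhibitory motif, had every library at 18 h above every library at 3 h. At 3 h it stood at 69.5, 78.4, 68 and 65.4 CPM untreated, at 80.4, 82.8, 58.2 and 69 CPM with S14 and at 67.1, 60.7, 49.5 and 53.7 CPM with LPS. These ranges overlapped, and neither S14 (0.04 ± 0.13, adjusted p = 0.907) nor LPS (-0.29 ± 0.14, adjusted p = 0.0788) passed the test. S14 against LPS gave 0.33 with a 95% interval of 0.05 to 0.61, not called (adjusted p = 0.0506 by edgeR's quasi-likelihood test) but called without S14 replicate 3 (0.42) or LPS replicate 1 (0.41). Without LPS replicate 1, LPS against untreated was called too (-0.37, adjusted p = 0.0398).

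At 18 h Clec4a2 was 132, 111, 137 and 141 CPM untreated, 183, 162, 213 and 202 CPM with S14 and 126, 120, 168 and 197 CPM with LPS. The S14 libraries lay above the untreated ones, and the LPS libraries spread over both. S14 raised it 1.46-fold (0.55 ± 0.12, adjusted p = 0.00118; -0.49 under spike-in scaling). LPS gave 0.23 ± 0.13 (adjusted p = 0.116), which was called without LPS replicate 2 (0.33, adjusted p = 0.0245) or 1 (0.32, adjusted p = 0.0399). S14 exceeded LPS by 0.31 (95% interval 0.06 to 0.57, adjusted p = 0.0414; -0.09 under spike-in scaling), a call lost without S14 replicate 1, 3 or 4 or LPS replicate 1 or 2 (0.22 to 0.46). The LPS response was 0.52 higher at 18 h than at 3 h (adjusted p = 0.0202; -0.5 under spike-in scaling), and it was lost without LPS replicate 3 at 3 h (0.45, adjusted p = 0.0527) or replicate 4 at 18 h (0.38, adjusted p = 0.068). The S14 response gave 0.5 (adjusted p = 0.0555), and was called without S14 replicate 1 (0.56) or 2 (0.58) at 3 h or 2 at 18 h (0.58). Untreated Clec4a2 rose by 0.89 (adjusted p = 1.19e-06; 1.8 under spike-in scaling).

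Clec4a3, a close relative of Clec4a2 in the same stretch, changed more with time than with treatment. At 3 h it stood at 47.6, 33.8, 37.2 and 33.7 CPM untreated, at 46.8, 48.9, 43.6 and 44.6 CPM with S14 and at 46, 37.3, 42.5 and 44.7 CPM with LPS. The 3 groups overlapped, since untreated replicate 1 was as high as the treated libraries. S14 gave 0.27 ± 0.1 (adjusted p = 0.0776) and LPS 0.16 ± 0.11 (adjusted p = 0.196); without that library these were 0.39 (adjusted p = 0.00725) and 0.29 (adjusted p = 0.0245).

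At 18 h Clec4a3 was 175, 159, 156 and 155 CPM untreated, 212, 190, 200 and 190 CPM with S14 and 207, 203, 224 and 231 CPM with LPS. Both treated groups lay above the untreated one and overlapped each other. S14 gave 0.3 ± 0.09 (adjusted p = 0.0109; -0.68 under spike-in scaling) and LPS 0.43 ± 0.09 (adjusted p = 7.82e-05; -0.2 under spike-in scaling). S14 against LPS gave -0.13 with a 95% interval of -0.31 to 0.05 (adjusted p = 0.255). In untreated cells the level rose 4.23-fold over time (2.08 ± 0.1, adjusted p = 9.78e-21), from 38.1 ± 6.54 to 161 ± 9.2 CPM (SD, n = 4). Neither response differed between times past the threshold (0.03 for S14, adjusted p = 0.929, and 0.26 for LPS, adjusted p = 0.113).

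Over the direct comparison of the 2 stimuli, S14 was above LPS for 2 receptors and below it for 2 at 3 h (23.7% of all tested genes called higher and 22.4% lower, 46.1% in all), and above for 4 and below for 3 at 18 h (21.3% higher and 21.3% lower, 42.6% in all). The medians of the 9 were 0.11 and 0.29, against 0.07 and 0.02 for all tested genes. The doses were 30 µM and 100 ng/mL, so the values compare these 2 conditions and not equal doses. Under spike-in scaling no receptor was called at 3 h, and 2 were above and 3 below at 18 h. In untreated cells 5 receptors rose and 3 fell from 3 h to 18 h, with 19.2% of all tested genes called higher and 19.6% lower (38.8% in all), and the median of the 9 was 0.8 against -0.01 for all. Between times, the S14 response was larger for 2 receptors and smaller for 3, with 7.61% of all tested genes called higher and 8.98% lower (16.6% in all). The LPS response was larger for 4 and smaller for 4, with 25.1% higher and 26.1% lower (51.2% in all). Larger and smaller refer to the signed log2 fold change at 18 h minus that at 3 h; under spike-in scaling these counts were 0 and 5 for S14 and 2 and 4 for LPS, and in untreated cells 5 rose and 1 fell.

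The Clec4 stretch held members with unlike responses side by side. At its one end Clec4n, Clec4d and Clec4e had log2 fold changes of 2.79, 1.65 and 4.9 after 18 h of LPS, and at the other end Clec4a3 had 0.43. Clec4b1, which was named after its values were seen, lies between Clec4a3 and Clec4a2 and was lower, with -2.82 ± 0.32 with LPS (adjusted p = 4.09e-10) and -0.92 ± 0.27 with S14 (adjusted p = 0.00867; -1.88 under spike-in scaling). Clec4a4 and Clec4b2 did not pass the filter on low counts.

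**Figure D3:**
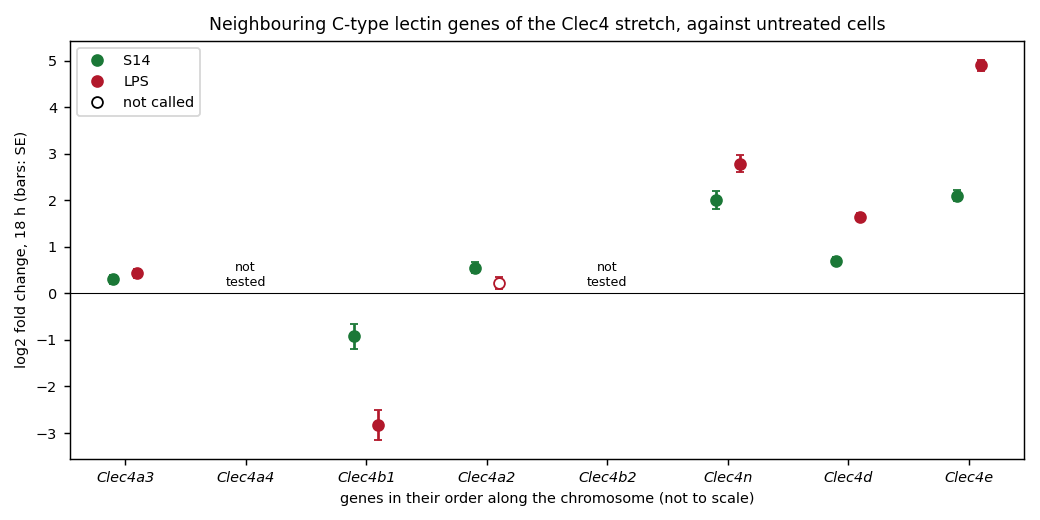
Log2 fold change against untreated cells at 18 h (y axis; bars, SE) for the 8 C-type lectin genes of the Clec4 stretch in their order along the chromosome (x axis, not to scale), with S14 in green and LPS in red; open points are not called. Clec4n, Clec4d and Clec4e at the right end lie above 0 for both treatments, and Clec4b1 lies below 0.

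Of 28 signalling partners of the receptors, all tested, S14 raised 8 and lowered 4 at 3 h and raised 8 and lowered 4 at 18 h, while LPS raised 14 and lowered 9 at 3 h and raised 12 and lowered 9 at 18 h. Of all tested genes 15.2% and 24.3% were called with S14 at 3 h and 18 h, and 55.5% and 55.6% with LPS. Under spike-in scaling the 18 h counts turned to 1 raised and 17 lowered with S14 and 2 raised and 10 lowered with LPS. That scaling also moved the median of all tested genes at 18 h, by -0.97 with S14 and -0.64 with LPS. Without untreated replicate 4 at 18 h these shifts were -0.47 and -0.15. The spike-in counts are therefore not read as a result about the partners. The list's medians were 0.06 and 0.22 with S14 and 0.27 and 0.26 with LPS, in that order of times. Fcer1g, the adaptor of Clec4e, Clec4d and Clec4n, averaged 2346, 2494 and 3006 CPM at 3 h in untreated, S14 and LPS cells and 2365, 3379 and 5234 CPM at 18 h. At 18 h it was higher after S14 (0.51 ± 0.07, adjusted p = 8.21e-07) and LPS (1.15 ± 0.08, adjusted p = 4.61e-17), and at 3 h after LPS (0.36 ± 0.07, adjusted p = 7.36e-05). Under spike-in scaling Fcer1g was not called in any of these, with -0.51 for S14 and 0.42 for LPS at 18 h and 0.69 for LPS at 3 h. When untreated replicate 4 at 18 h was left out as well, Fcer1g was called higher with LPS at 3 h (0.69, adjusted p = 0.00618). It was then also called with LPS at 18 h (1, adjusted p = 0.000248), and not with S14 at 18 h (0.07). Tyrobp, the adaptor of Clec5a, fell with LPS at 3 h (-0.38 ± 0.07, adjusted p = 1.68e-05) and at 18 h (-0.28 ± 0.07, adjusted p = 0.000985), and was not called with S14 (-0.09 and 0.17). Under spike-in scaling Tyrobp gave -0.06 with LPS at 3 h, not called, and was called lower at 18 h with both (-0.88 with LPS and -0.76 with S14). Both 18 h calls were lost without untreated replicate 4 (-0.49, adjusted p = 0.0968 with LPS, and -0.38, adjusted p = 0.217 with S14).

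Syk was called higher in all 4 comparisons with untreated cells, at 3 h by 0.96 with S14 and 0.58 with LPS, at 18 h by 0.41 and 1.17. Under spike-in scaling its 18 h values were -0.58 and 0.51, neither called. Without untreated replicate 4 at 18 h as well, that of LPS was called (1, adjusted p = 0.00043) and that of S14 was not (-0.09). At 3 h S14 exceeded LPS for Syk by 0.37 (adjusted p = 9.66e-05), and at 18 h it was below LPS (-0.76, adjusted p = 4.74e-11). Card9 had only 1.82 to 7.2 CPM in group means and was called lower with LPS at 3 h (-1.13 ± 0.44, adjusted p = 0.0283) and 18 h (-0.89 ± 0.37, adjusted p = 0.0382). Untreated libraries at 18 h ran from 4.33 to 15.2 CPM, and without replicate 4 of that group the 18 h value of Card9 was -0.23 (adjusted p = 0.62). That call was also lost without LPS replicate 1, 2 or 3, and the 3 h call without untreated replicate 2 or 4 or LPS replicate 2 or under spike-in scaling (-0.79, adjusted p = 0.35). Among the other partners, the rule for named genes gave Rasgrp3, a Ras exchange factor, which fell with LPS by 6.87 at 18 h (adjusted p = 1.79e-21) and with S14 by 1.04 (adjusted p = 6.93e-06; -1.99 under spike-in scaling). It also gave the kinase Src (3.81 with LPS and 1.93 with S14 at 3 h), Malt1, the protease that works with Card9 and Bcl10 (3.73 and 2), and the calcium channel Itpr1 (2.44 with LPS, and 0.02 with S14, not called). Rasgrp3 averaged 0.736 CPM with LPS at 18 h and Src 3.18 CPM in untreated cells at 3 h. The sizes of these changes thus rest on low levels.

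**Figure D4:**
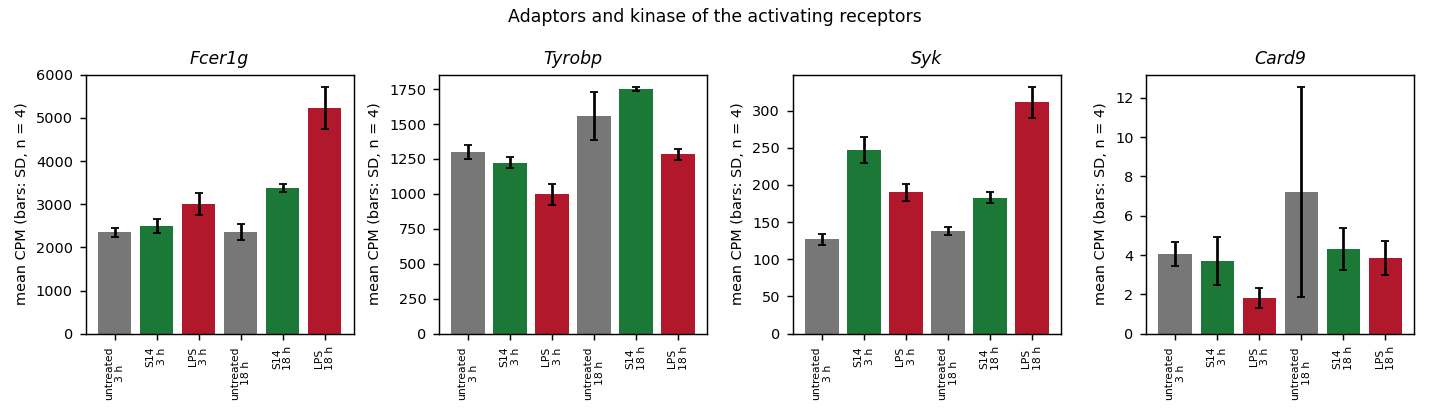
Mean level in CPM (y axes, from 0; bars, SD of 4 libraries) of the adaptors Fcer1g and Tyrobp, the kinase Syk and the scaffold Card9 in the 6 groups. Fcer1g and Syk are highest with LPS at 18 h, at 5234 and 311 CPM, and Card9 is below 8 CPM in every group mean.

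Of 38 other C-type lectin genes, 18 passed the filter on low counts, so their counts describe only these. S14 raised 4 and lowered 1 at 3 h and raised 2 and lowered 2 at 18 h, and LPS raised 10 and lowered 3 at 3 h and raised 6 and lowered 5 at 18 h, beside the same 15.2% and 24.3% of all genes for S14 and 55.5% and 55.6% for LPS. Under spike-in scaling S14 at 18 h raised 1 and lowered 9, and LPS raised 5 and lowered 7, beside the same shift of all tested genes. Cd69, an early activation marker that retains lymphocytes in tissue, went from 7.29 ± 1.72 CPM in untreated cells to 73.7 ± 13.4 with S14 and 1423 ± 124 with LPS at 3 h (SD, n = 4; log2 3.33 and 7.6). Olr1, the receptor for oxidised low-density lipoprotein, rose with both at 3 h (3.54 with S14 and 5.21 with LPS), and Klrk1 (NKG2D) rose with LPS (5.26) and was not called with S14 (1.03). In untreated, S14 and LPS cells at 3 h Olr1 averaged 0.41, 5 and 16.1 CPM and Klrk1 0.457, 1.02 and 18.9 CPM. The fold changes of these genes thus rest on untreated levels near the floor.

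Of 19 transcription factors listed as regulators of myeloid genes, 18 were tested; S14 raised 12 and lowered 3 at 3 h and raised 7 and lowered 2 at 18 h, and LPS raised 14 and lowered 3 at 3 h and raised 10 and lowered 4 at 18 h, beside 15.2%, 24.3%, 55.5% and 55.6% of all genes in that order. Under spike-in scaling S14 raised 2 and lowered none at 3 h and raised none and lowered 11 at 18 h, while LPS raised 13 and lowered 2 at 3 h and raised 2 and lowered 6 at 18 h. These counts too stand beside a shift of all tested genes under that scaling. Cebpd, which binds C/EBP sites, rose at 3 h by 1.96 with S14 and 3.49 with LPS, and Cebpa, its relative, fell by 0.51 with S14, a call lost without untreated replicate 2 or 3 or under spike-in scaling (-0.37), and by 3.86 with LPS. Irf8 rose with LPS at 3 h (2.82) and was not called with S14 (-0.27). Rel, an NF-kB subunit, rose at 3 h by 0.74 with S14 and 2.73 with LPS. Under spike-in scaling the S14 value of Rel was 0.83 and not called (adjusted p = 0.249). Without untreated replicate 4 at 18 h as well, it was 0.84 and called (adjusted p = 0.0111).

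The genes closest in pattern to each receptor were found by the root mean square difference of log2 CPM over the 6 group means, each gene centred on its own mean; 0 would be an identical pattern. Clec4d lay closest to Pgam1 and Tmem63b (0.07 each), Clec12a to Traf5 (0.06) and Mrpl44 (0.07), and Clec4a2 to Plxna1 and Kif3a (0.12 each). Clec4a3 lay closest to Ms4a14 (0.18) and Siglec1 (0.22), Clec7a to B4galt4 (0.21) and Smagp (0.22), and Clec5a to Slc4a7 (0.24). Distances were larger for Clec4n, with Gm6977 (0.35) and Mgst1 (0.37), for Clec10a, with Ptgs1 and Pcp4l1 (0.49 each), and for Clec4e, with Cdc42ep2 (0.54) and Morrbid (0.56). No receptor was among the 2 closest genes of another; the nearest pairs of receptors were Clec12a with Clec4a2 (0.5) and Clec4a2 with Clec4a3 (0.51). Over the 24 libraries instead, 5 of these genes stayed among the 2 closest: Cdc42ep2, Slc4a7, Pcp4l1, Plxna1 and Ms4a14.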

How the data were processed

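The members and the gene lists were chosen with earlier results of these data known. The deposited count table holds the authors' whole read counts per gene; its column names call the control cells Veh, where the sample labels say untreated. A second deposited table holds the authors' normalized signal, reads divided by 1 size factor per library, with 114 spike-in RNAs; the reads recovered from it were whole within 0.1 for 100% of values. The submitters' processing notes name STAR 2.6.1a, featureCounts 1.6.4 (Subread), cutadapt 1.18, FastQC, DESeq2 and the GRCm38 genome. Their order, strand setting and gene annotation are not given in the sources used. The 7 ribosomal RNA entries, 0.132% to 0.469% of reads in a library, were set aside.

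From the counts, edgeR 4.0.16 (R 4.3.3) kept genes by filterByExpr (minimum count 10, minimum total 15), scaled libraries by TMM and fitted all 24 libraries together, with 6 group means, by robust quasi-likelihood (18 residual degrees of freedom). Every adjusted p is from edgeR's quasi-likelihood F test with Benjamini-Hochberg adjustment, over 11717 genes in the main fit. In the TMM fits that left out 1 library, the filter was rerun and the adjustment was over the genes it kept. CPM are of the scaled library, and groups are given as mean ± SD of 4 libraries. The fit was also run on simulated counts, built from the untreated 3 h levels with known changes put into S14 at 3 h only. That setting differs from these data, and its outcome is not used here. Alternatives were DESeq2's size factors, the DESeq2 1.42.0 Wald test, no filter, a replicate block, the compared groups only, the reads of the second table, spike-in scaling, and leaving out each library; spike-in scaling without untreated replicate 4 at 18 h, and the omissions and spike-in scaling for named list genes, were added after seeing the data. How much spike-in RNA each sample got is not stated in these sources.

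All 9 receptors are named in each comparison. Of the signalling partners, Fcer1g, Tyrobp, Syk and Card9 are always named, and of each list the 4 genes with the largest absolute called change against untreated cells at 10 CPM or more in the higher group. For each receptor the 2 genes most like it over the 6 group means are named, among genes with at least 10 CPM in their highest group. Some items that these rules take are not reported here. Figures were drawn with matplotlib 3.10.9 under Python 3.11.15.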

Additional observations from a re-analysis of the deposited data

Results flagged for a closer look

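In 2 of the 54 sets of 4 libraries (9 genes in 6 groups), 1 library lay far from the other 3; chance gives about 1 in 20. Clec4e in replicate 3 of S14 at 18 h was 182 CPM, with 134 to 137 CPM in the other 3, and the gap to the nearest was 0.929 of the whole range. Clec10a in replicate 3 of LPS at 18 h was 2.91 CPM, from 13 reads, with 1.01 to 1.31 CPM in the other 3 (gap 0.84 of the range).

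The response differed between 3 h and 18 h, by the interaction term of edgeR's quasi-likelihood fit, for 5 receptors under S14: Clec4n (1.79), Clec4d (0.44), Clec10a (-1.07), Clec5a (-0.89) and Clec12a (-0.32). Under LPS it differed for 8: Clec4n (3.33), Clec4e (2.21), Clec4d (1.53), Clec4a2 (0.52), Clec10a (-6.04), Clec7a (-2.92), Clec12a (-0.8) and Clec5a (-0.75). Each value is the log2 fold change at 18 h minus that at 3 h. Of all tested genes, 16.6% were called for this difference under S14 and 51.2% under LPS. The S14 call of Clec12a and the LPS call of Clec4a2 were lost in some omissions of 1 library. Under spike-in scaling Clec4n (0.8) and Clec4d (-0.63) were not called with S14. Nor were Clec4d (0.59) and Clec4a2 (-0.5) with LPS.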

How the results depend on the processing

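Of the 81 receptor results (9 genes in 9 comparisons), 54 were called, and 43 of these stayed called whichever library of the compared groups was left out; 11 were lost and 10 others gained at least once. Receptors called when 1 library was left out numbered 2 to 4 for S14 at 3 h, LPS at 3 h and S14 against LPS at 3 h, 7 to 8 for S14 at 18 h, LPS at 18 h and the LPS response between times, 6 to 8 for S14 against LPS at 18 h, 8 to 9 for untreated cells over time and 4 to 6 for the S14 response between times. Direction and call were the same for 81 results with the reads of the second table, 80 with DESeq2's size factors, 79 with the DESeq2 test, 76 with the compared groups only and 72 with no filter on low counts. They were the same for 56 under spike-in scaling and for 63 when untreated replicate 4 at 18 h was left out of it as well. Same-numbered libraries were not treated as paired, since the labels do not say what a replicate number shares. Of 60 such pairs, 1 had a correlation of deviations over 0.1 (median 0.026, -0.101 to 0.143). Yet 17 of 24 libraries correlated best with their own number, more than an even draw among the 4 numbers would give. That is a hint from the data, not the design, and what a number shares was not tested. With the replicate block 80 results were the same, and Clec5a with LPS at 18 h was called (-0.36, adjusted p = 0.0375).

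Spike-in scaling moved the median of all tested genes by -0.97 for S14 and -0.64 for LPS at 18 h (0.11 and 0.34 at 3 h) and by 0.83 in untreated cells over time. Without untreated replicate 4 at 18 h, the lowest in spike-ins, the 18 h shifts were -0.47 and -0.15. Receptors called then numbered 1 for S14 at 3 h, 1 for LPS at 3 h and 0 for S14 against LPS at 3 h by edgeR's test; without that library they numbered 2 for LPS at 3 h, 5 for S14 at 18 h and 0 for S14 against LPS at 3 h. Signs reversed for Clec4d (-0.26), Clec4a2 (-0.49) and Clec4a3 (-0.68) with S14 at 18 h, Clec4a3 with LPS at 18 h (-0.2), Clec4a2 in S14 against LPS at 18 h (-0.09), Clec4d in the S14 response between times (-0.63) and Clec4a2 in that of LPS (-0.5). Without that library, Clec4a3 with S14 at 18 h (-0.19), Clec4a2 in S14 against LPS at 18 h (-0.09) and Clec4d in the S14 response between times (-0.18) were reversed. The cause was not tested. Depth limits Clec10a with LPS at 18 h, which rests on 4 to 13 reads a library.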
